A study of Mus musculus with 8 samples.

Results

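The genes described here are interleukin 2 (Il2) and 8 receptor chains of the common gamma chain family, namely Il2ra, Il2rb, Il2rg, Il7r, Il4ra, Il21r, Il15ra and Il9r. These 9 genes were taken by symbol through the GENCODE M21 annotation from a table of 52636 Ensembl genes, and all 9 were found. RNA was sequenced from immune cells of mouse spleen and lymph node, a mixed population and not a sorted one, with 2 columns in each of 4 groups. The groups are TCR1640 male, TCR1640 female, SJL/J male and SJL/J female, as labelled. TCR1640 is a receptor-transgenic line whose T cells recognise myelin, bred on SJL/J and prone to spontaneous autoimmune encephalomyelitis, and SJL/J is its wild-type strain. All animals were taken at 35 to 55 days of age without signs of disease. Cells of every group were cultured for 4 days with anti-CD3 at 1 μg/ml, IL-23 and IL-6 at 20 ng/ml each, TGF-β at 4 ng/ml and IL-12 at 3 ng/ml, which the labels call a TH1/TH17 stimulation. No IL-2 is named among the additions. The sources used here give neither the promoter of the transgene nor whether mice were pooled.

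IL-2, IL-4, IL-7, IL-9, IL-15 and IL-21 signal through receptors that share the common gamma chain, encoded by Il2rg, which carries the kinase JAK3. The partner chain sets which cytokine is bound, and JAK1 on the partner and JAK3 together activate STAT5 (IL-2, IL-7, IL-9 and IL-15), STAT6 (IL-4) or STAT3 (IL-21). On T cells the alpha chain CD25 (Il2ra) gives the IL-2 receptor its high affinity and is induced by antigen receptor signals and by IL-2 itself, whereas the IL-7 receptor chain (Il7r) is high on resting cells and is lowered by activation.

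Promoter sequences are shown for Il2ra and Il21r, the members whose difference between strain labels passed in all 19 alternative model fits, in opposite directions, and for Il7r, whose difference between strain labels changed sign between the sexes. Each runs from 250 bases before to 50 bases after the RefSeq gene start on GRCm38.p6, 5′ to 3′ on the strand of the gene, at chr2:11642542-11642841 (plus strand) for Il2ra, chr7:125603179-125603478 (plus strand) for Il21r and chr15:9529827-9530126 (minus strand) for Il7r. Capitals mark matches on either strand to the STAT motif TTCNNNGAA, the AP-1 motif TGANTCA or the NFAT core GGAAA.
Il2ra: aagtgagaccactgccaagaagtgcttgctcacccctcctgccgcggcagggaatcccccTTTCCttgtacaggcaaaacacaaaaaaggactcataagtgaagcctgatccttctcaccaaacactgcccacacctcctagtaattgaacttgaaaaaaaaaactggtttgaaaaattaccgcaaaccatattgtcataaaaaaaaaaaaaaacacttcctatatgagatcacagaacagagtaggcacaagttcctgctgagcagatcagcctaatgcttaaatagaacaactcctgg
Il21r: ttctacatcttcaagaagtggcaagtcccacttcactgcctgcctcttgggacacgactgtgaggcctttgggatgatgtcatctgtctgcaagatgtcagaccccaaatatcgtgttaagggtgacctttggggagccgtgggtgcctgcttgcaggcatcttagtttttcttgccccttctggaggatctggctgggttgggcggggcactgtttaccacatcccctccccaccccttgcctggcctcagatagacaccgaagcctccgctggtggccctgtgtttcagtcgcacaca
Il7r: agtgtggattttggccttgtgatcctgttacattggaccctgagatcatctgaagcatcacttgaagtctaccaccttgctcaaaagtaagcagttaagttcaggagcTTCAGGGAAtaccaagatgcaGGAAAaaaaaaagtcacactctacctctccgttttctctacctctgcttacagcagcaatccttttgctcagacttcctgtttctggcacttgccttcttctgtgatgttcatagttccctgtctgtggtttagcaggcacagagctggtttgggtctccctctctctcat
The Il2ra window held 1 match, an NFAT core 190 bases before the start, the Il7r window held 1 STAT match and 1 NFAT core that do not overlap, and the Il21r window held no match. Of 32851 promoter windows of this length in the table, 8.30% held the STAT motif, 7.81% the AP-1 motif and 61.3% the NFAT core. Of the 8 members with a window in the table, 1 (Il7r) held the STAT motif, 1 (Il15ra) the AP-1 motif and 6 the NFAT core. These matches are letters in a window and were not related to the counts.

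The columns held 3765291 to 5116467 counts each. The 2 columns of a group were close to sampling noise once the feature Gm43333 was left out (chi-square per degree of freedom 1.05 to 1.08, against 3.12 to 17.1 between groups), so they were summed and counted as 1 sample, and n = 1 per group throughout. For the members, 2 of 36 pairs of columns differed at an unadjusted exact binomial p under 0.05, namely Il7r in TCR1640 male columns and Il2 in TCR1640 female columns. The Y-linked gene Eif2s3y had 87 to 124 counts in male columns and 0 in female columns, and no column went against its sex label. The T cell receptor segments went against the strain labels: Trbv2 made up 20.6% (male) and 19.7% (female) of beta variable segment counts under the TCR1640 label, against 63.1% (male) and 58.3% (female) under the SJL/J label. Traj43 made up 2.91% (male) and 5.04% (female) of alpha joining segment counts under the TCR1640 label, against 79.2% (male) and 75.6% (female) under the SJL/J label. The narrower receptor use was in the libraries labelled SJL/J, so each strain name below is only the label of a library, and so is the direction of each strain difference. Features that are overlapped by exons of an opposite-strand gene, or that have no position, took 68.1% to 69.9% of the counts of a group, although the libraries are described as stranded, so the strand setting of the counting is in doubt. Of the members only Il4ra shares exon sequence with a gene on the opposite strand.

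The order of levels was led by Il2ra in every column. Per kilobase of exon on TMM-scaled CPM (counts scaled to library size), Il2ra ranged from 56.3 to 122 over the 8 columns, and no other member reached 40. Il2rb (24.9 to 38.2), Il4ra (24.1 to 34.4), Il21r (19.1 to 35.6) and Il7r (18.1 to 26.8) followed with overlapping ranges, so these neighbours were not ordered beyond their spread. Il2rg, the shared chain, was lower at 8.91 to 14.6. Il15ra was low (0.825 to 1.59), with 14 to 29 counts in a column. Il2 (0 to 1.98) and Il9r (0 to 0.203) were near the detection limit. Because the strand of the counted reads is in doubt, these per-length values order the counts and may not order the RNA.

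**Figure D1:**
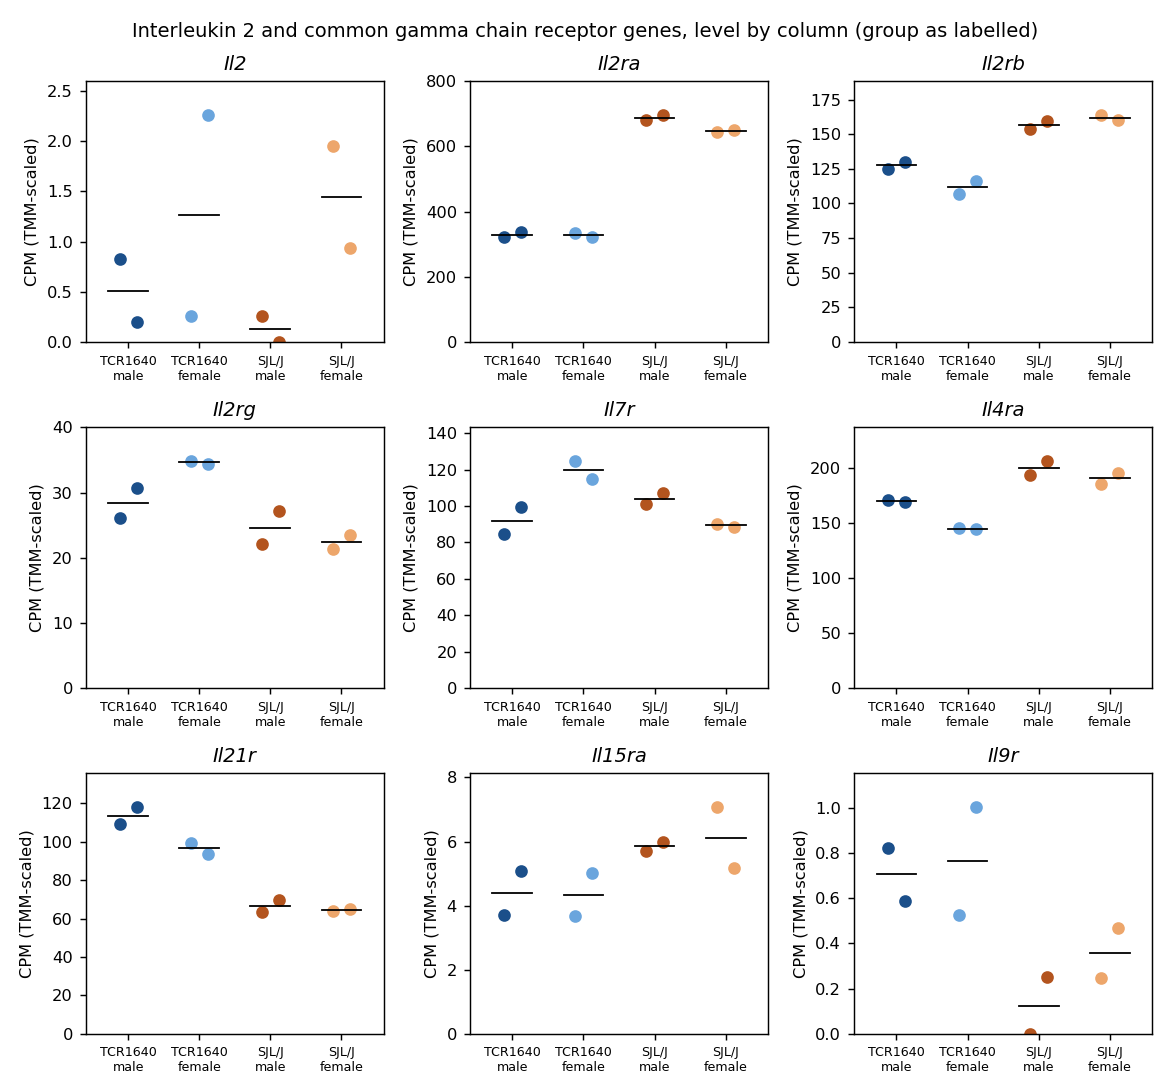
Level of each member in each of the 8 columns (y axis, TMM-scaled CPM, from 0; x axis, group as labelled; points are columns, black lines their mean). Il2ra lies at 322 to 337 CPM in the 4 columns labelled TCR1640 and at 645 to 696 CPM in those labelled SJL/J, and Il21r shows the opposite order.

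The first comparison set the libraries labelled TCR1640 against those labelled SJL/J. Of the 3 chains of the IL-2 receptor, Il2ra and Il2rb fell and Il2rg rose, and Il2ra had the largest change of the 8 members tested. In an additive edgeR model of the 4 summed samples, with sex as a term, 5 of the 8 tested members passed (2 rose and 3 fell), where 26.5% of all 17261 genes tested passed (13.4% higher and 13.1% lower). The median log2 change of the tested members was -0.10, against 0.01 over all genes. The residual of this model is the part of the sex difference that differs between the labels, with spread shared across genes (common coefficient of variation 9.78%), and its SE and p do not measure spread between mice.

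Il2ra (ENSMUSG00000026770, chromosome 2, 11642807 to 11693193 on GRCm38) had 322 and 337 CPM in the male and 333 and 322 CPM in the female columns labelled TCR1640, against 680 and 696 CPM in the male and 645 and 650 CPM in the female columns labelled SJL/J. All 4 columns labelled TCR1640 lay below all 4 labelled SJL/J, with no overlap and a narrow spread within each label. Il2ra fell by 1.02 on the log2 scale (SE 0.12, edgeR adjusted p = 5.52e-17), to 0.493 of the level under the SJL/J label. By sex, the log2 ratio of summed counts was -1.06 in males (95% counting interval -1.12 to -1.0) and -0.98 in females (-1.05 to -0.91). In bulk RNA, fewer cells that express a gene and less RNA per cell cannot be told apart.

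Il2rb (ENSMUSG00000068227, chromosome 15, 78479256 to 78495271), the beta chain CD122 shared by the IL-2 and IL-15 receptors, had 125 and 130 CPM in the male and 107 and 116 CPM in the female columns labelled TCR1640, against 154 and 159 CPM in the male and 164 and 160 CPM in the female columns labelled SJL/J. The columns of the labels did not overlap. Il2rb fell by 0.41 (SE 0.13, edgeR adjusted p = 0.00601), with a ratio of -0.29 (-0.41 to -0.18) in males and -0.53 (-0.65 to -0.41) in females. The edgeR call was lost with DESeq2 (adjusted p = 0.135).

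Il2rg (ENSMUSG00000031304, chromosome X, 101264378 to 101268255), the common gamma chain itself, had 26.1 and 30.7 CPM in the male and 34.9 and 34.4 CPM in the female columns labelled TCR1640, against 22.0 and 27.2 CPM in the male and 21.3 and 23.5 CPM in the female columns labelled SJL/J. The male columns of the labels overlapped, and the female columns did not. Il2rg rose by 0.42 (SE 0.16, edgeR adjusted p = 0.0314), with a ratio of 0.21 (-0.06 to 0.48) in males and 0.63 (0.36 to 0.91) in females. It shares exon sequence on its own strand with Gm20489, so reads there may not have been counted for it. The Il2rg call did not hold when either TCR1640 female column, TCR1640 male 2, either SJL/J female column or SJL/J male 1 was left out. Across these fits the edgeR adjusted p was 0.0567 to 0.14. The call was also lost with upper-quartile factors, no filter or DESeq2. Neither the number 1 nor the number 2 columns alone gave it (log2 change 0.47 and 0.34).

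Ratios of counts within a library need no scaling between libraries. There were 2.58 Il2ra counts per Il2rb count in males (95% counting interval 2.42 to 2.76) and 2.93 in females (2.71 to 3.17) labelled TCR1640, against 4.39 in males (4.13 to 4.68) and 4.00 in females (3.77 to 4.25) labelled SJL/J. Per Il2rg count there were 11.6 Il2ra counts in males (10.2 to 13.1) and 9.46 in females (8.34 to 10.8) labelled TCR1640, against 27.9 in males (24.2 to 32.4) and 28.9 in females (25.0 to 33.6) labelled SJL/J. The alpha chain was thus lower relative to both of its partner chains in the libraries labelled TCR1640, in each sex and in each single column.

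**Figure D2:**
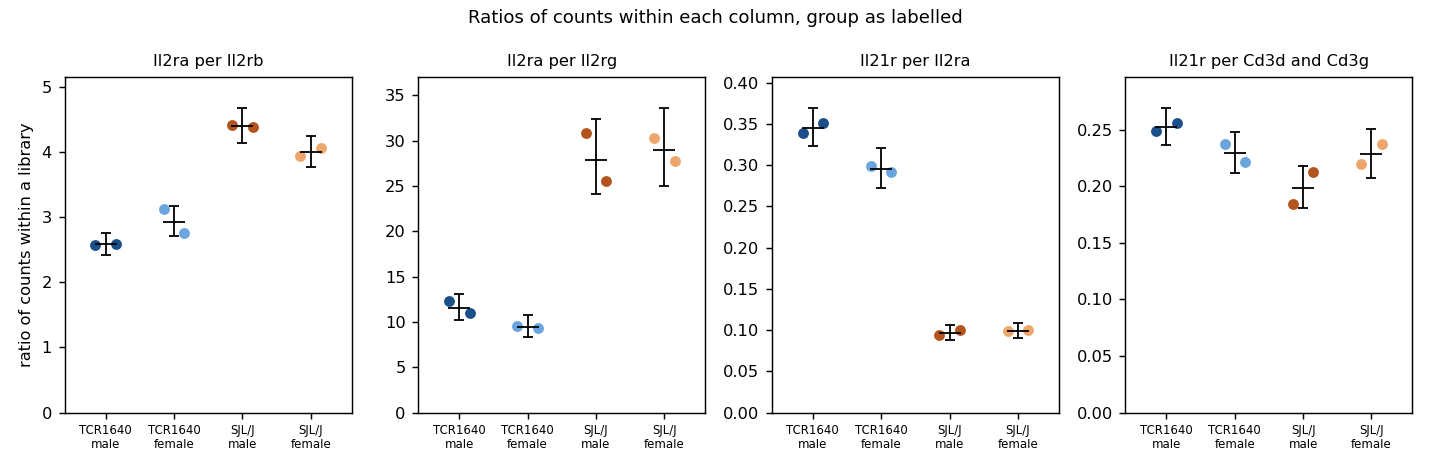
Ratios of counts within a library (y axes, from 0; x axis, group as labelled). Coloured points are columns, and black marks are the summed group with its exact 95% counting interval; Il2ra per Il2rb is 2.57 to 3.12 in the TCR1640 columns and 3.94 to 4.41 in the SJL/J columns, whereas the intervals of Il21r per Cd3d and Cd3g overlap between the labels in females and not in males.

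Markers of several cell types moved with Il2ra. The summed level of 4 regulatory T cell markers was 407 to 409 CPM in male and 413 to 427 CPM in female columns labelled TCR1640, against 611 to 622 CPM in male and 531 to 555 CPM in female columns labelled SJL/J. Within that list only Ctla4, a coinhibitory receptor also induced by activation, fell, by 0.89 (SE 0.12, edgeR adjusted p = 4.84e-12). Ctla4 stood at 188 CPM in males and 195 CPM in females labelled TCR1640, against 382 CPM in males and 328 CPM in females labelled SJL/J. Tnfrsf18, which overlaps Gm16008 on the opposite strand, rose by 0.39 (SE 0.14, edgeR adjusted p = 0.0221). Foxp3, the defining factor, which overlaps Ccdc22, Ppp1r3f and Gm36995, stood at -0.20 and did not pass (edgeR adjusted p = 0.252), nor did Ikzf2. All 6 mast cell and basophil markers fell, with a summed level of 17.5 to 19.6 CPM in male and 16.0 to 17.6 CPM in female columns labelled TCR1640, against 96.8 to 101 CPM in male and 79.3 to 84.1 CPM in female columns labelled SJL/J. No marker of either list was at 0 in any group. Neutrophil and platelet markers differed by more: 7 of 8 neutrophil markers fell and 1, Ly6g, rose, with sums of 5.76 to 8.61 CPM in male and 8.29 to 12.3 CPM in female columns labelled TCR1640, against 149 to 156 CPM in male and 58.9 to 60.7 CPM in female columns labelled SJL/J. All 4 platelet markers fell, with sums of 9.67 to 12.1 CPM in male and 8.91 to 11.5 CPM in female columns labelled TCR1640, against 242 to 252 CPM in male and 139 to 150 CPM in female columns labelled SJL/J. Of these lists, S100a8 (neutrophil list) and Ppbp (platelet list) were among the markers at 0 in both groups labelled TCR1640. The part of these cells in the results on the members was not tested.

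Among the partner chains of other cytokines, Il21r rose, Il4ra fell, and Il7r and Il15ra did not pass. Il21r (ENSMUSG00000030745, chromosome 7, 125603429 to 125633570), which binds IL-21, had 109 and 118 CPM in the male and 99.6 and 93.9 CPM in the female columns labelled TCR1640, against 63.5 and 69.9 CPM in the male and 63.8 and 65.0 CPM in the female columns labelled SJL/J. The columns of the labels did not overlap. Il21r rose by 0.68 (SE 0.13, edgeR adjusted p = 4.48e-06), a fold of 1.60, with a ratio of 0.77 (0.62 to 0.93) in males and 0.59 (0.43 to 0.75) in females. There were 0.345 Il21r counts per Il2ra count in males and 0.295 in females labelled TCR1640, against 0.0970 in males and 0.0995 in females labelled SJL/J.

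T cell, CD8 and B cell markers moved with Il21r. The 5 T cell markers summed to 901 to 921 CPM in male and 792 to 808 CPM in female columns labelled TCR1640, against 746 to 759 CPM in male and 679 to 680 CPM in female columns labelled SJL/J. The 2 CD8 genes summed to 282 to 282 CPM in male and 269 to 276 CPM in female columns labelled TCR1640, against 50.2 to 52.1 CPM in male and 38.2 to 48.6 CPM in female columns labelled SJL/J. The 6 B cell markers, none at 0, summed to 41.8 to 43.6 CPM in male and 39.2 to 42.5 CPM in female columns labelled TCR1640, against 25.0 to 26.7 CPM in male and 21.8 to 23.7 CPM in female columns labelled SJL/J. Set against the summed counts of Cd3d and Cd3g, CD3 chains whose exons overlap no gene on the opposite strand, the log2 ratio of Il21r was 0.35 in males and 0.01 in females, and that of Il2ra was -1.49 in males and -1.56 in females. On that scale Il2rg was -0.22 in males and 0.05 in females, so its male ratio turned. Its 95% counting intervals per Cd3d and Cd3g count overlapped between the labels in both sexes. In males they were 0.0558 to 0.0712 under the TCR1640 label and 0.0631 to 0.0849 under the SJL/J label. This scaling was chosen after the values were seen, and the part of these cells in the Il21r result was not tested.

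Il4ra (ENSMUSG00000030748, chromosome 7, 125552120 to 125579474), the chain that binds IL-4 and is shared with the IL-13 receptor, had 171 and 169 CPM in the male and 145 and 144 CPM in the female columns labelled TCR1640, against 194 and 207 CPM in the male and 186 and 196 CPM in the female columns labelled SJL/J. Il4ra fell by 0.31 (SE 0.12, edgeR adjusted p = 0.0408), and the columns of the labels did not overlap. It is uncertain, since 571 bases of the 670 exonic bases of Gm44876 lie on its opposite strand, and Gm44876 held 1116 to 1836 counts against 554 to 864 for the whole of Il4ra. Gm44876 did not pass (log2 change -0.21, SE 0.12, edgeR adjusted p = 0.174), and with the counts of both features summed the male ratio was -0.10, against -0.23 for Il4ra alone. The female ratio was -0.40 both for the summed features and for Il4ra alone. The Il4ra call was also lost without either TCR1640 female column, TCR1640 male 2, SJL/J female 2 or SJL/J male 2. Across these fits the edgeR adjusted p was 0.0509 to 0.0765. The call was lost too with no filter, with DESeq2 and when TMM used only genes without overlap. From the number 1 columns alone (log2 change -0.28) it did not pass either.

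Il7r (ENSMUSG00000003882, chromosome 15, 9505788 to 9530176), which binds IL-7 and, with Crlf2, TSLP, had 84.4 and 99.4 CPM in the male and 125 and 115 CPM in the female columns labelled TCR1640, against 101 and 107 CPM in the male and 90.2 and 88.7 CPM in the female columns labelled SJL/J. In males the columns labelled TCR1640 were the lower, and in females they were the higher. The log2 ratio between strain labels was -0.17 in males (-0.31 to -0.03) and 0.42 in females (0.28 to 0.56), and the average over both sexes, 0.12, did not pass (SE 0.13, edgeR adjusted p = 0.539). It was called only with the 8 columns as separate libraries (0.12, edgeR adjusted p = 0.0381). Set against Cd3d and Cd3g, the male ratio was -0.60 and the female ratio turned to -0.16. On that scale the female counting intervals overlapped between the labels (0.264 to 0.305 for TCR1640, 0.292 to 0.345 for SJL/J), and the male intervals did not.

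Il15ra (ENSMUSG00000023206, chromosome 2, 11705290 to 11734317), which presents IL-15 to neighbouring cells, had 14 to 26 counts in columns labelled TCR1640 and 22 to 29 in those labelled SJL/J. Its log2 change of -0.44 did not pass (SE 0.30, edgeR adjusted p = 0.294). Its counts overlapped between the labels, and on the CPM scale its columns narrowly did not (3.67 to 5.09 for TCR1640, 5.16 to 7.09 for SJL/J). Il9r (ENSMUSG00000020279, chromosome 11, 32187541 to 32200279), the IL-9 receptor known from mast cells and TH9 cells, had 2 to 4 counts in columns labelled TCR1640 and 0 to 2 in those labelled SJL/J, and was left out of the model by its filter. These 7 and 6 counts in the male and female samples labelled TCR1640, against 1 and 3 in those labelled SJL/J, gave ratios whose counting intervals included equality in both sexes. Il2 (ENSMUSG00000027720, chromosome 3, 37120523 to 37125959), the only cytokine among the members, had 28 counts in all columns together. It had 4 and 1 counts in the male and 1 and 9 in the female columns labelled TCR1640, against 1 and 0 in the male and 8 and 4 in the female columns labelled SJL/J, and its log2 change of 0.28 did not pass (SE 0.70, edgeR adjusted p = 0.82). On the CPM scale the 4 Il9r columns labelled TCR1640 (0.524 to 1.00) lay above the 4 labelled SJL/J (0 to 0.469), but each rests on 4 counts or fewer. By the counting intervals no difference in Il2 or Il9r between the labels was detectable at this depth.

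**Figure D3:**
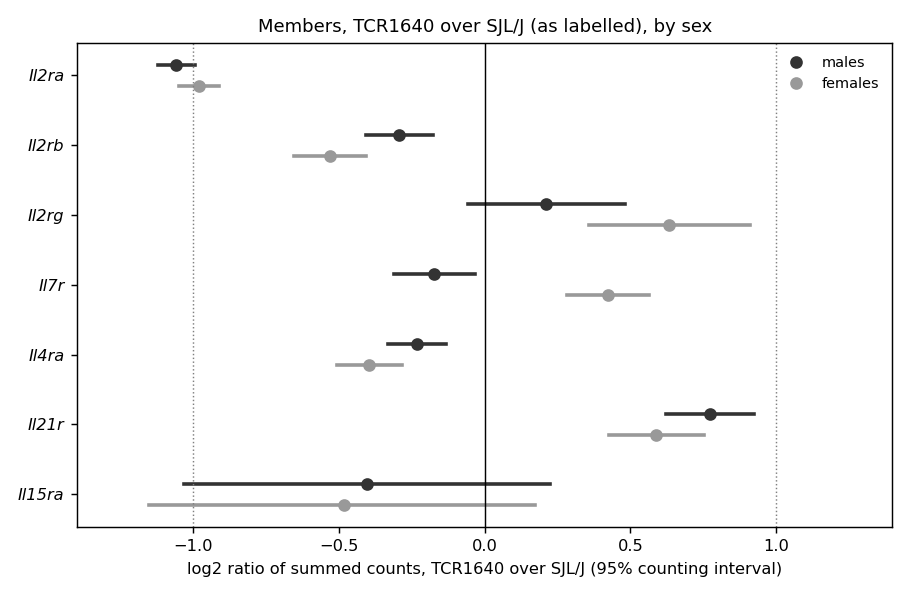
Log2 ratio of summed counts, TCR1640 over SJL/J as labelled (x axis; points are ratios, bars exact 95% intervals for counting error, dotted lines 2-fold), for the 7 members with at least 50 counts in each comparison, males above females. Il2ra lies near -1 in both sexes, Il21r is above 0 in both, and Il7r is below 0 in males and above 0 in females.

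By a rule of size, at least 2-fold with an interval that excludes equality, 1 of 7 counted members, Il2ra, was apart and lower in males (9.88% of all counted genes were apart and 4.89% lower) and 0 of 7 in females (7.53%), where Il2ra reached 0.507 of the SJL/J value. Without TCR1640 female 1 or SJL/J female 1 it was past 2-fold in females too, at -1.01 and -1.0. The interval excluded equality for 5 of 7 members in males (1 higher and 4 lower), against 50.9% of all counted genes (26.1% higher and 24.8% lower). In females it did so for 6 of 7 (3 higher and 3 lower), against 45.6% (24.5% higher and 21.1% lower). Of the 6 members with at least 200 counts, 1 was higher and 3 were lower in all 4 columns labelled TCR1640, where 38.4% of such genes had columns that did not overlap (20.2% higher and 18.3% lower). Within a sex, the columns of the labels did not overlap for 5 of these 6 members in males, against 73.1% of such genes, and for 6 of 6 in females, against 69%.

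Genes of the wider pathway were read from lists chosen with earlier results of these data known. Each count below stands beside the 26.5% of all tested genes that passed (13.4% higher and 13.1% lower) and their median log2 change of 0.01. Among the other ligands, Il21 rose by 0.74 (SE 0.12, edgeR adjusted p = 1.04e-08), but overlaps Gm12534 on the opposite strand and is uncertain, and Il4 stood at 0.14 and did not pass. The other 5 of these 7 ligands were not tested, and Il9 and Il15 had 0 counts in every column. Neither of the 2 tested partner chains, Crlf2 and Il13ra1, passed, and Il13ra2 was not tested. Of 7 kinases and STATs 2 rose and 5 did not pass, a share close to that of all genes. Jak1 rose by 0.84 (SE 0.13, edgeR adjusted p = 5.21e-10), and is overlapped by Raver2. Jak3, the kinase of the common gamma chain, stood at 0.17 (edgeR adjusted p = 0.305) and Stat5b at 0.23 (adjusted p = 0.184).

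Of 17 genes known to respond to IL-2 and STAT5, 5 rose, 2 fell and 10 did not pass, with a median log2 change of 0.20. The feedback inhibitors did not move together. Socs3, which is also induced by STAT3, rose by 1.74 (SE 0.13, edgeR adjusted p = 1.12e-39) and Socs1 rose by 1.31 (SE 0.16, adjusted p = 1.39e-14), whereas Socs2 fell by 1.25 (SE 0.32, adjusted p = 0.000633). Cish, a STAT5 target, stood at 0.27 and did not pass (edgeR adjusted p = 0.166), and it overlaps Gm17041 and Gm17040. Bcl6, a repressor that opposes STAT5 and overlaps Gm37419, rose by 0.95, and the survival gene Bcl2, which overlaps D630008O14Rik, rose by 0.68. Its relative Bcl2l1 fell by 0.68 (SE 0.17, edgeR adjusted p = 0.000607).

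Of 13 regulators of Il2 transcription 6 rose, 2 fell and 5 did not pass (median 0.17). Ikzf3 and Ikzf1, Ikaros family repressors of Il2, rose by 1.14 and 0.52, and Crem, another repressor, fell by 1.20 and overlaps Gm6225. Of the activators, Jun (0.90, overlapped by Junos), Nfatc1 (0.48) and Rel (0.48) rose. Cd28, also in this list, fell by 0.40 (SE 0.13, edgeR adjusted p = 0.0113). Of 10 regulators of Il7r and naive T cell genes 7 rose, 1 fell and 2 did not pass, with a median of 0.61. Klf2, a transcription factor of resting T cells, rose by 2.14 (SE 0.16, edgeR adjusted p = 7.4e-40), Tcf7, which encodes TCF1, by 1.99 and the chemokine receptor gene Ccr7 by 1.58. Foxo1, an activator of Il7r, rose by 0.76 and overlaps Gm20402, and Runx1, which overlaps Gm26626, fell by 0.88. Il7r itself, at 0.12, did not pass.

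**Figure D4:**
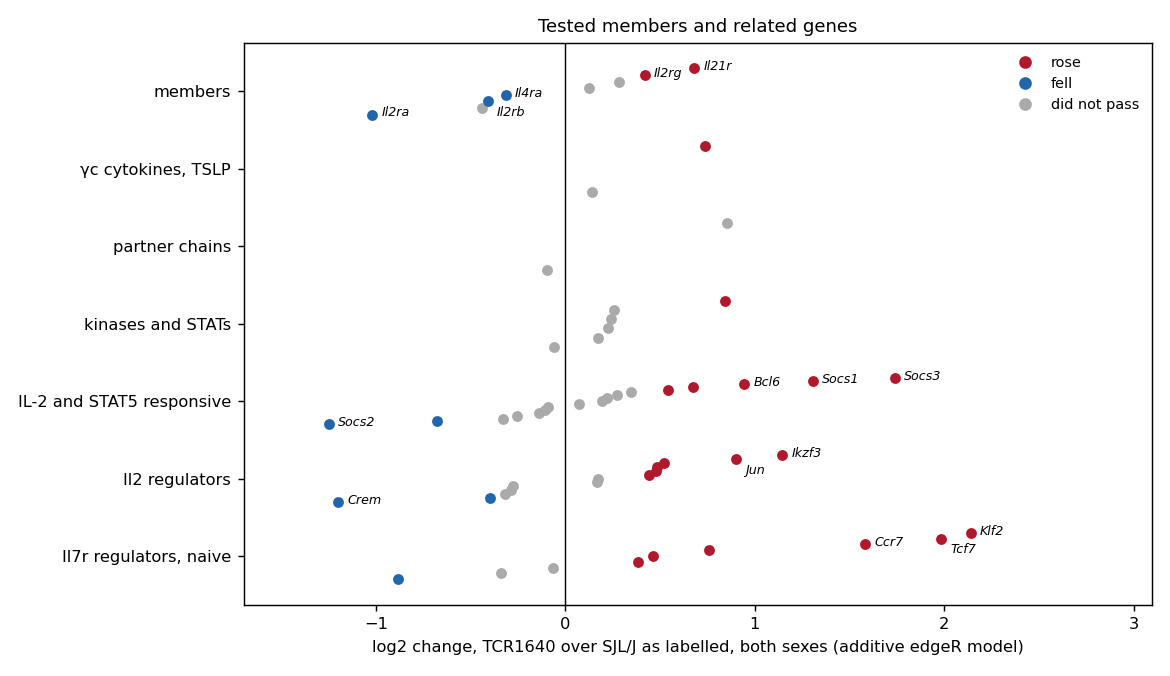
Log2 change between strain labels over both sexes (x axis, TCR1640 over SJL/J, additive edgeR model) for the tested members and for tested genes of 6 related lists (rows). Red genes rose, blue genes fell and grey genes did not pass; Klf2 at 2.14 and Tcf7 at 1.99 lie furthest right of the genes drawn, and Socs2 and Crem furthest left.

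The second comparison set males against females. Over both strain labels 0 of the 8 tested members passed, where 1.1% of all 17261 genes did. At an unadjusted edgeR p under 0.05 there was 1, Il2, which rests on 28 counts. The log2 change was between -0.08 and 0.15 for Il2ra, Il2rb, Il2rg, Il7r, Il4ra and Il21r. DESeq2 also called 0 members. With the 8 columns as separate libraries, Il4ra was called (0.15, edgeR adjusted p = 0.000838). Il2 had 5 counts in males and 10 in females labelled TCR1640, and 1 in males and 12 in females labelled SJL/J, and its change of -2.01 did not pass (SE 0.74, edgeR adjusted p = 0.217). Its counting interval excluded equality in the SJL/J label alone, where it ran from -8.92 to -0.74.

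Within the TCR1640 label, 5 of 7 counted members had an interval that excluded equality, 3 higher and 2 lower in males, against 29.7% of all counted genes (13.8% higher and 15.9% lower). Male and female columns did not overlap for 5 of the 6 members with at least 200 counts, against 58.8% of such genes. Il21r was higher in males at 0.24 (0.10 to 0.37), Il4ra at 0.23 (0.12 to 0.34) and Il2rb at 0.19 (0.06 to 0.32). Il7r was lower in males at -0.38 (-0.51 to -0.25) and Il2rg at -0.28 (-0.53 to -0.04). Il2ra stood at 0.01 (-0.07 to 0.08). Set against Cd3d and Cd3g, the counting intervals of the sexes overlapped for Il21r (0.236 to 0.269 in males, 0.212 to 0.248 in females). They also overlapped for Il2rb (0.266 to 0.301 in males, 0.246 to 0.286 in females) and for Il2ra. For Il7r and Il2rg, both lower in males, they did not overlap. Il4ra was not set on that scale. Without the number 2 columns the Il7r ratio was -0.55, and without the number 1 columns it was -0.21; its male columns held 410 and 508 counts.

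Within the SJL/J label, 2 of 7 counted members had an interval that excluded equality, both higher in males, against 25.4% of all counted genes (11.8% higher and 13.6% lower). Male and female columns did not overlap for 3 of the 6 members with at least 200 counts, against 54.6% of such genes. Il7r was higher in males at 0.22 (0.07 to 0.36) and Il2ra at 0.09 (0.03 to 0.14). Set against Cd3d and Cd3g, these turned to -0.036 and -0.17. On that scale the counting intervals of the sexes overlapped for Il7r (0.286 to 0.335 in males, 0.292 to 0.345 in females). They did not for Il2ra (1.95 to 2.14 in males, 2.19 to 2.41 in females). The same held for Il2rb, lower in males at 0.435 to 0.499, against 0.537 to 0.614 in females. The intervals overlapped for Il2rg and Il21r. Scaled to library size instead, Il2rb stood at -0.05 (-0.16 to 0.06) and Il2rg at 0.14 (-0.16 to 0.44). On the same scale Il4ra stood at 0.07 (-0.03 to 0.17) and Il21r at 0.05 (-0.12 to 0.23). None of the 7 counted members was past 2-fold between the sexes in either label, where 1.62% of counted genes were in the TCR1640 label and 1.26% in the SJL/J label. The neutrophil and platelet sums given above were also higher in males than in females of the SJL/J label, and their part in these values was not tested.

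**Figure D5:**
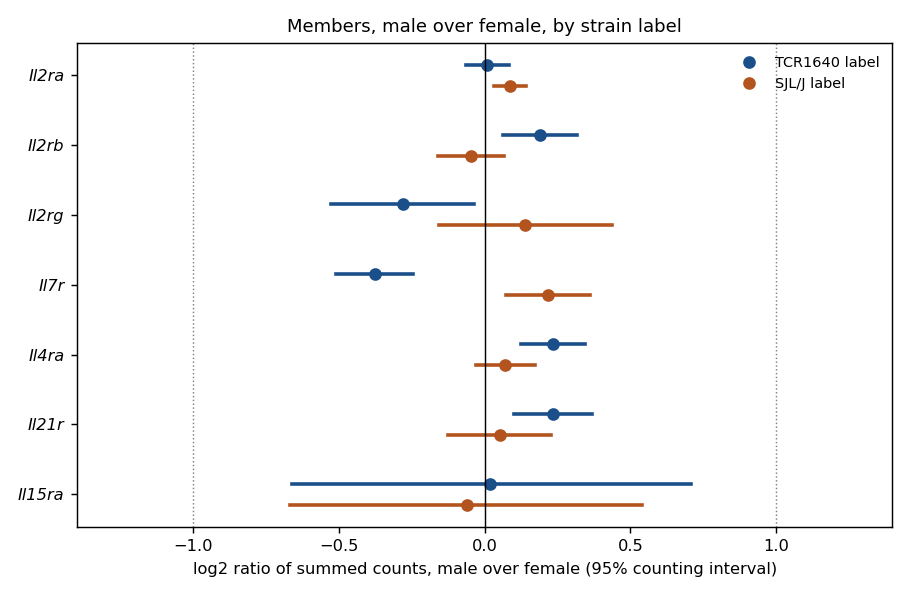
Log2 ratio of summed counts, male over female (x axis; points are ratios, bars exact 95% intervals for counting error, dotted lines 2-fold), for the 7 members with at least 50 counts in each comparison, TCR1640 label above SJL/J label. Il7r is at -0.38 in the TCR1640 label and at 0.22 in the SJL/J label, and every point lies within 2-fold.

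Of the related lists, 1 gene of the 17 that respond to IL-2 and STAT5 rose in males, Prf1, which encodes perforin, by 0.68 (SE 0.14, edgeR adjusted p = 0.000513), and 16 did not pass. None of the other tested genes of the 6 lists passed for sex in edgeR.

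The genes whose level over the 4 groups was most like that of Il2ra, among 6778 other genes without opposite-strand overlap and with at least 200 counts, were Ptprj, a receptor tyrosine phosphatase, Pop1 and Plxnc1. Their root mean square distance from the Il2ra pattern in centred log2 CPM was 0.02, 0.04 and 0.04, and 40 genes lay within 0.1. Those most like Il7r were Gbp11, Nmi and Golga3, at 0.01, 0.02 and 0.02, and 204 genes lay within 0.1. With 4 groups such likeness is a description. Il2 had too few counts for this.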

How the data were processed

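Raw counts for Ensembl genes are what the authors deposited, in 1 table. Per the submitters' processing notes bcl2fastq 2.17, Bowtie2, HTSeq and the mm10 build were used, and per the labels' protocols libraries were made with a KAPA stranded mRNA kit from 500 ng of RNA. Neither the strand setting nor the annotation release is given in the sources used here. If the strand setting was reversed, a gene with no overlapping partner kept few of its reads.

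Symbols, positions and exon lengths came from GENCODE M21 (GRCm38, the assembly that mm10 names), which lacked 147 identifiers. Columns of a group were summed. edgeR 4.0.16 under R 4.3.3 fitted strain label and sex (TMM, filterByExpr, quasi-likelihood F test, two-sided Benjamini-Hochberg adjusted p under 0.05 over all 17261 genes); the SE was taken as the absolute change divided by root F, with 1 residual degree of freedom. The procedure was tested on simulated data. Within-sex and within-label ratios divide the summed counts, each over its TMM-scaled library size, with exact 95% (Clopper-Pearson) intervals, covering counting error only; members with under 50 counts (Il2, Il9r) have intervals but enter no count of members. CPM uses TMM-scaled totals. DESeq2 1.42.0 and limma-voom (limma 3.58.1) were alternatives. Named from each list were at most 6 called genes with the largest change (3 for sex). Jak3, Stat5b, Cish, Il4, Cd28 and the markers beside Il2ra were named after their values were seen. Of the related lists, 2 genes are counted but not reported here. Members and lists were chosen with earlier results of these data known. The labels do not say whether the columns of a group came from separate mice.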

Additional observations from a re-analysis of the deposited data

Results flagged for a closer look

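For Il7r the male and female columns did not overlap in either strain label, but the male columns were the lower in the TCR1640 label and the higher in the SJL/J label. The sex ratio in the TCR1640 label minus that in the SJL/J label was -0.60 on the log2 scale (counting interval -0.79 to -0.40). Equally, the ratio between strain labels was 0.60 higher in females than in males. For Il2rb the male columns were the higher in the TCR1640 label and the lower in the SJL/J label, and the sex ratios differed by 0.24 (0.07 to 0.40). The counting interval of this difference also excluded 0 for Il2rg, at -0.42 (-0.80 to -0.05), and for Il4ra, at 0.16 (0.01 to 0.31), whose columns overlapped in the SJL/J label. Between the sexes, 58.8% of genes with at least 200 counts had columns that did not overlap in the TCR1640 label and 54.6% in the SJL/J label, so such separation was common. With 1 sample per group these differences were not tested.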

How the results depend on the processing

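Il2ra and Il21r kept their direction and passed between strain labels in all 19 alternative fits, with log2 changes of -1.05 to -1.0 and 0.63 to 0.71. Il2rb passed in 18 of 19, Il4ra in 10 and Il2rg in 8, all with the same sign. The number of members called between strain labels, 5, was 3 with no filter and from the number 1 columns alone, 2 with DESeq2 and 3 to 5 when 1 column was left out. Called genes, 4572 between strain labels, were 1410 with DESeq2 and 2981 from the number 1 columns alone. Called genes between sexes, 190, were 108 with upper-quartile factors, 118 with no filter, 7 with DESeq2, 12 and 112 from the number 1 and number 2 columns alone, 143 without SJL/J female 1 and 8 to 123 without each other column (8 without TCR1640 male 2).

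With the 8 columns as separate libraries 7821 genes were called between strain labels and 2759 between sexes, with 6 members between strain labels (Il7r added) and 1 (Il4ra) between sexes; with the replicate block these were 7857, 2875, 6 and 1. The numbers showed no pairing (correlations across genes of -0.005 to 0.017 between groups).

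Past 2-fold between strain labels in females were 0 to 1 members when 1 column was left out and 1 from the number 2 columns alone. At 1.5-fold there were 2 in males and 3 in females. Signs changed for uncalled sex values: Il15ra was -0.13 to 0.10 when 1 column was left out (0.06, 0.06 and 0.10 without TCR1640 female 2, TCR1640 male 1 and SJL/J female 1), and from the number 2 columns alone Il15ra was 0.12, Il2rg 0.0083 and Il7r 0.025. Scaled to Cd3d and Cd3g, Il7r between labels in females was -0.16, and within the SJL/J label the sex ratios of Il2ra and Il7r were -0.17 and -0.036. The counting intervals overlapped in both of these Il7r comparisons and not in that of Il2ra. On that scale the intervals of the sexes did not overlap for Il2rb in the SJL/J label. In the TCR1640 label they overlapped for Il21r and Il2rb. These causes were not tested. Depth limited Il2, Il9r and Il15ra.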
